A study of Mus musculus with 26 samples.

Results

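Interferon-stimulated genes are switched on by interferons, the secreted proteins with which cells warn each other of viruses and other intruders. A set of 35 such genes was examined in the livers of Eµ-MYC mice. The members were chosen by gene name, with earlier results of these data known. Of the 35 genes, 33 were found among the 36883 gene names of the raw counts table, and Mx1 and Mx2 were not analysed here. They were divided into 23 type I genes, typical of the response to interferon alpha and beta, and 10 gamma-type genes, typical of the response to interferon gamma. Many of these genes answer to both kinds of interferon, so the division is one of emphasis. In the labelled comparison, jet lag against 12:12 lighting, none of the 33 genes passed the test in all libraries of either sex or of both together. Few genes of any kind passed it. Over both sexes 0.444% of all genes tested were higher and 0.337% lower, in males 0% and 0.0118%, and in females 0% in either direction. The level of the set varied from library to library, being lower in most livers with a high level of the B cell receptor gene Cd79a. In a comparison added after the data were seen, 6 of the 33 genes were higher in females than in males and none was lower. Of all genes tested, 4.67% were higher in females and 4.46% lower.

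Eµ-MYC mice carry a MYC transgene driven by the immunoglobulin heavy chain enhancer, which is active in the B lineage, and B-lineage lymphomas arise in them. All animals of the series were labelled Eu-MYC, so the controls carried the transgene too and no animal without it was analysed here. Whole liver RNA was sequenced from 8 females and 6 males kept under 12 hours of light and 12 hours of dark, and from 8 females and 4 males under chronic jet lag for 8 weeks. Male jet lag libraries carry the numbers 5 to 8 and male 12:12 libraries the numbers 1 to 6. The sources used here do not give the strain background, the age, the shifting schedule, the time of day of collection or the state of disease.

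Type I interferons act through the receptor of IFNAR1 and IFNAR2, and many promoters that respond to them hold the interferon-stimulated response element (ISRE). Interferon gamma acts through the receptor of IFNGR1 and IFNGR2, and many promoters that respond to it hold gamma-activated sites (GAS). In the liver both hepatocytes and resident immune cells such as Kupffer cells can respond.

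Promoter windows of members that hold a match are shown to let the response elements be seen. Both motifs were searched on both strands over the 250 bases before the listed transcription starts of RefSeq genes (GRCm38.p6), and overlapping matches were counted. For some members, such as Ifit2, Ifit3 and Xaf1, these starts lay inside the outer bounds of the gene. The bases before those bounds were not all searched. RefSeq promoters were matched to 25 of the 33 genes. The letters of the ISRE, GAAA, any 2 bases and GAAA, were found in 13 of the 25 (52.0%), 8 of 17 type I and 5 of 8 gamma-type genes, against 3.46% of all 27025 genes with a promoter. The letters of the GAS, TTC, any 3 bases and GAA, were found in 5 of the 25, against 8.13% of all genes. Among members named in the results, the promoters of Cmpk2, Xaf1, Ifi44, Irf7, Ddx58, Ifih1, Oasl1, Tap1 and Psmb9 held neither run of letters. Those of Ifit2 and Psmb8 held the GAS letters only. Windows of 60 bases are printed on the strand of the gene, with 1 ISRE match in capitals, except for Ifit2 and Psmb8, where the capitals mark a GAS match. A match in reverse orientation reads TTTC at its start. The windows lie at chr4:156200850-156200909 (minus strand, Isg15), chr19:34640779-34640838 (plus, Ifit1), chr5:120777700-120777759 (minus, Oas3), chr8:71537562-71537621 (minus, Bst2), chr3:142620579-142620638 (plus, Gbp2), chr3:142559980-142560039 (plus, Gbp3), chr19:34550444-34550503 (plus, Ifit2) and chr17:34198073-34198132 (plus, Psmb8).
Isg15: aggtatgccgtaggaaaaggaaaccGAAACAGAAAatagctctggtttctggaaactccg
Ifit1: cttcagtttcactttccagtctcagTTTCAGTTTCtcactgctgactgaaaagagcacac
Oas3: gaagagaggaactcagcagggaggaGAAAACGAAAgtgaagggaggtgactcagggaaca
Bst2: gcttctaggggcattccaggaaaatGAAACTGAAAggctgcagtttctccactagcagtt
Gbp2: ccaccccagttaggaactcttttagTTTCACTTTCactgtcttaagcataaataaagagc
Gbp3: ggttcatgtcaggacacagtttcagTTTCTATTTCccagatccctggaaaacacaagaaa
Ifit2: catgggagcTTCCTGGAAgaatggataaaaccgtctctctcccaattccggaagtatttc
Psmb8: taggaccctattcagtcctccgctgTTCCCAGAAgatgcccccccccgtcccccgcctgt

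Libraries held from 45364557 to 50242019 counts, so the limit that a count of 0 allows (3 counts) was at most 0.0661 CPM, for counting error only. CPM is the count of a gene divided by the total of its library and multiplied by 1000000. All 33 genes were above that limit in every library and passed the filter on low counts. The hepatocyte markers were all detected, with Alb alone at 10% to 22.1% of counts. Cd79a split the libraries into 8 with 14.5 to 144 CPM and 18 with 1.28 to 2.95 CPM. The 8 were female 12:12 libraries 6 and 7, female jet lag libraries 2, 5 and 6, male 12:12 libraries 3 and 5 and male jet lag library 8. Counts of calls and medians for lighting and sex are given with and without them.

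Per kilobase of exon, Bst2 was the most abundant member, with a mean of 121 CPM per kb. It encodes tetherin, which holds budding virus particles at the cell surface. Next came the GTPase gene Iigp1 at 40.5 CPM per kb and Psmb8, a catalytic subunit of the immunoproteasome, at 26.5 CPM per kb. The immunity-related GTPase genes Irgm1 and Igtp stood at 17.9 and 16.3 CPM per kb, and Irf7, the transcription factor that amplifies type I interferon production, at 17.5 CPM per kb. Isg15, a ubiquitin-like modifier that is joined to other proteins, stood at 10.8 CPM per kb and the RNA sensor gene Ddx58 (RIG-I) at 7.33 CPM per kb. The least abundant were the oligoadenylate synthetase gene Oas3 at 0.42, Rsad2 (viperin) at 0.82, the mitochondrial nucleotide kinase gene Cmpk2 at 0.95, Ifi44 at 1.08 and the chemokine gene Cxcl10 at 1.20 CPM per kb. Ifit1, Ifit3, Oas1a, Gbp2, Gbp6 and Iigp1 have close relatives in the genome with which reads may be shared, so their levels are uncertain to that extent.

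The ratio of the highest to the lowest library ran from 2.27 for Stat2, which encodes a subunit of the ISRE-binding complex, to 33.8 for Ifi44, whose highest library held 7.69 and lowest 0.228 CPM. The genes tended to be low in the same libraries. Male 12:12 library 3 was the lowest of the 26 for 18 of 33 genes and male jet lag library 8 for 8 genes, and both are libraries with high Cd79a. Male jet lag library 7, with Cd79a at 2.42 CPM, was the lowest for 4 genes, among them Parp14 at 11.7 CPM. Female jet lag libraries 1 and 3 were the highest for 12 and 9 genes.

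**Figure D1:**
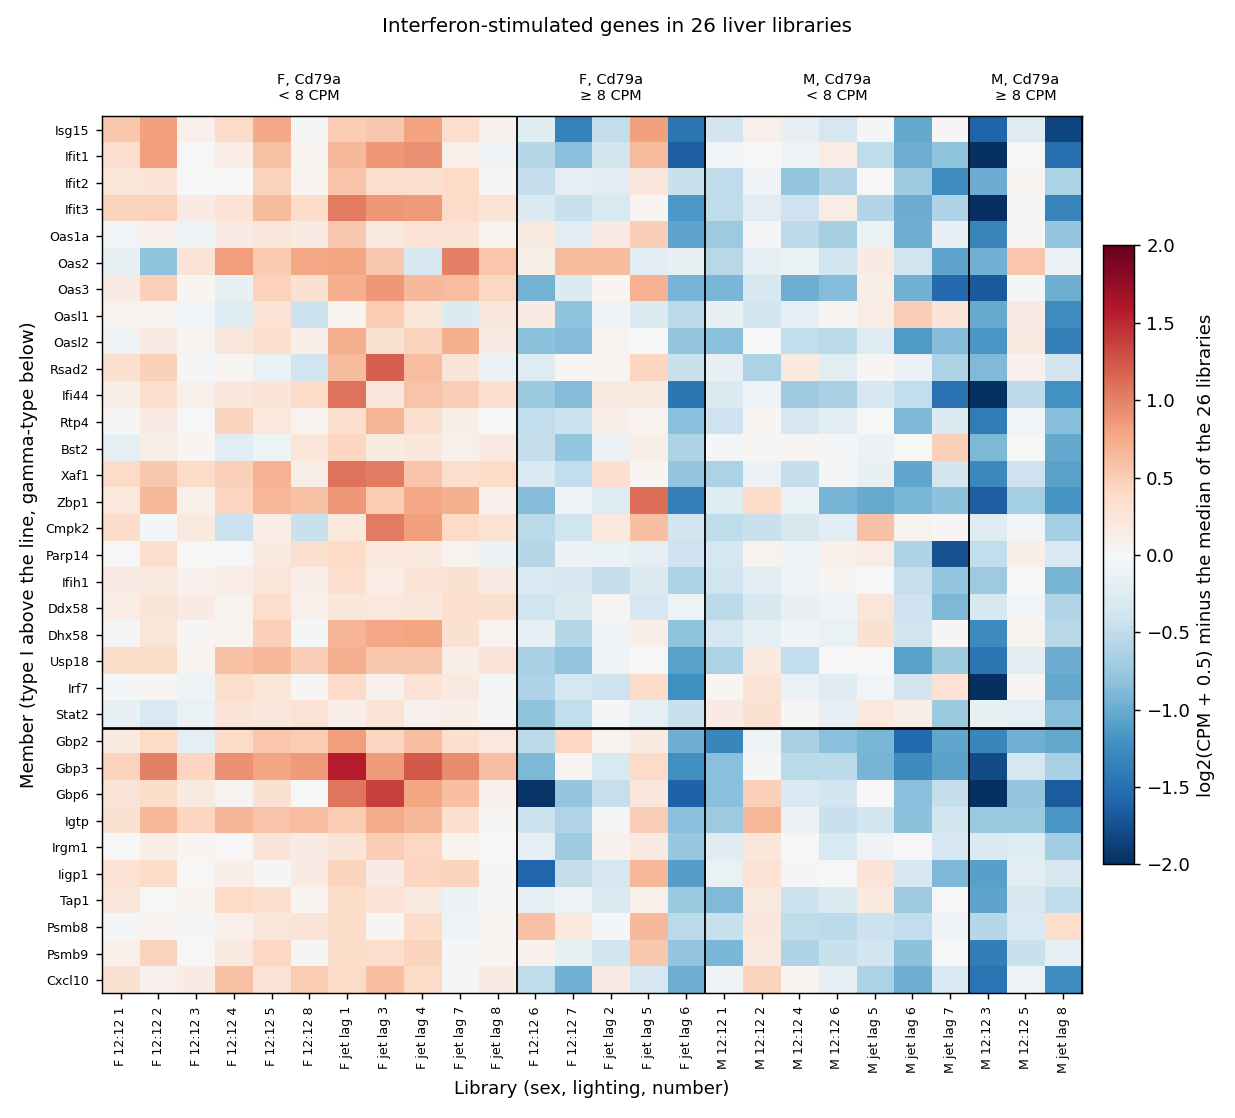
Colour gives log2(CPM + 0.5) of each gene (rows) in each library (columns) minus that gene's median over the 26 libraries, with colours ending at -2 and 2. Female libraries with low Cd79a are mostly red, while male 12:12 library 3 and female jet lag library 6 are blue for all 33 genes.

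The level of the set in a library was summarised as the median over genes of log2(CPM + 0.5) minus the gene's median over all libraries. For the 23 type I genes it ran from -1.27 in male 12:12 library 3 to 0.58 in female jet lag library 1. For the 10 gamma-type genes it ran from -1.19 in male 12:12 library 3 to 0.46 in female jet lag library 3. All 11 female libraries with low Cd79a lay above 0 on both lists, between 0.05 and 0.58 for type I and between 0.04 and 0.46 for gamma-type genes. All 7 male libraries with low Cd79a lay below 0 for type I genes, between -0.71 and -0.01, and 6 of the 7 did for gamma-type genes, the exception being male 12:12 library 2 at 0.22.

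In livers with Cd79a of 8 CPM or more, the mean level of 32 of the 33 genes was lower than in the others. Mean log2(CPM + 0.5) was lower for all 23 type I genes and for 9 of 10 gamma-type genes, the exception being Psmb8. The median difference, high Cd79a minus the rest, was -0.50 for type I and -0.52 for gamma-type genes, against 0.10 over the 12703 genes with a mean of at least 1 CPM. This is a description with no test, since the libraries were divided by a measured gene. In bulk tissue, fewer cells of a type and less RNA per cell cannot be told apart.

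Isg15 (chromosome 4, 156199424 to 156200818) stood at 1.86, 4.14 and 14.4 CPM (lowest, median and highest) in the 8 libraries with high Cd79a and at 3.66, 8.54 and 14.4 CPM in the 18 others. Ifit1, which encodes a protein that binds foreign RNA and blocks its translation, stood at 1.26, 4.13 and 11.2 CPM against 3.29, 7.47 and 13.5 CPM. For both genes 7 of the 8 libraries lay below the median of the others, and female jet lag library 5 lay above it. Ifi44, an interferon-induced gene of the antiviral response, stood at 0.228, 1.72 and 3.90 against 0.872, 3.89 and 7.69 CPM. The mean log2 differences of these 3 genes, the largest among type I genes, were -0.97, -0.91 and -0.86.

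Among the gamma-type genes Gbp6 and Gbp3 had the largest differences. They encode guanylate-binding proteins, GTPases that attack the membranes around intracellular microbes, and another such gene, Gbp2, had a difference of -0.40. Gbp6 stood at 2.94, 7.25 and 19.5 CPM in the libraries with high Cd79a against 9.04, 18.2 and 43.7 CPM in the rest, a mean log2 difference of -1.32. Gbp3 stood at 4.24, 11.1 and 20.8 against 6.34, 23.2 and 48.0 CPM, a difference of -0.85. Cxcl10, a chemokine that draws activated T cells, stood at 0.352, 0.95 and 2.17 against 0.711, 2.17 and 3.12 CPM, a difference of -0.78. All 8 libraries lay below the median of the rest for Gbp3, and 7 of 8 for Gbp6 and Cxcl10, with overlapping ranges for all 3. Psmb8 stood at 28.4, 45.2 and 66.7 against 29.6, 42.6 and 55.1 CPM, and its highest library was female jet lag library 5.

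Over all 26 libraries no member was free of overlap between the Cd79a sets, where 0.0157% of the 12703 genes were lower and 4.35% higher without overlap. Within females, 5 libraries against 11, the median difference was -0.58 for type I and -0.67 for gamma-type genes. In females Ifit3, the RNA sensor genes Ifih1 (MDA5) and Ddx58, the ISG15 protease gene Usp18 and Gbp3 were lower without overlap, 5 of 33 genes against 1.46% of all genes, while 0 members and 7.94% of all genes were higher without overlap. Within males, 3 libraries against 7, the medians were -0.47 and -0.33 and no gene was free of overlap, against 1.82% of all genes that were lower and 16% that were higher without overlap.

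The 8 libraries were not alike. Female jet lag library 5 had Cd79a at 62.7 CPM, and yet its median deviation was 0.12 for type I and 0.30 for gamma-type genes. It was the highest of all libraries for 4 genes, Zbp1, a sensor of Z-form nucleic acids that can start cell death, Iigp1, Psmb8 and Psmb9. Female jet lag library 6, at 31.4 CPM of Cd79a, had -0.80 and -0.90, and all 33 genes lay below their medians. Male 12:12 library 5, at 26.2 CPM, had -0.01 and -0.34. It lay above the medians of the male libraries with low Cd79a, which were -0.21 and -0.38. The other males with high Cd79a were lower, 12:12 library 3 at -1.27 and -1.19 and jet lag library 8 at -0.98 and -0.67.

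**Figure D2:**
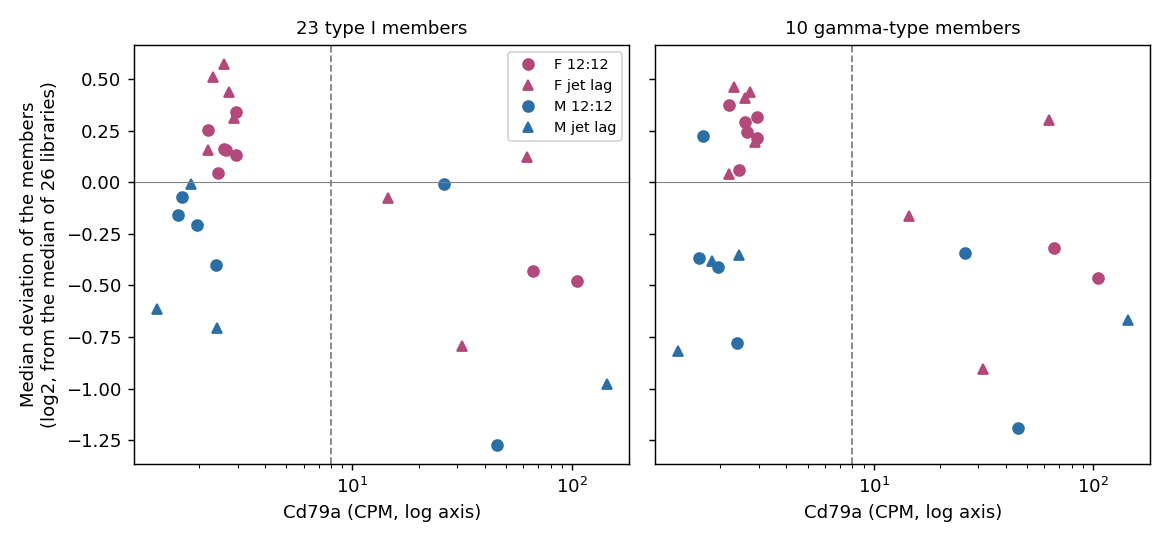
Each point is a library, with its Cd79a level in CPM on a log axis and the median deviation of the 23 type I (left) or 10 gamma-type genes (right) in log2 units. The dashed line stands at 8 CPM, and among the 8 libraries to its right female jet lag library 5 alone lies above 0 on both lists.

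Some other cell markers moved with the Cd79a sets. The summed level of 11 B-lineage markers was 51.8 to 483 CPM in the 8 libraries against 9.30 to 21.2 CPM in the rest. These 11 include Cd79a, which divided the libraries, so that difference is in part set by the division. The sum of 10 macrophage and Kupffer cell markers was 599 to 2765 CPM against 314 to 685 CPM, and all 10 had a higher mean. The sum of 8 neutrophil markers was 6.88 to 450 CPM against 1.19 to 7.32 CPM. That of 8 hepatocyte markers, which include Alb, was 168753 to 255187 against 141103 to 183315 CPM. Of these hepatocyte markers 5 had a higher mean and 3 a lower one, with a median log2 difference of 0.06 against 0.10 over all genes. The sum of 10 T and NK cell markers was 2.07 to 6.37 against 2.11 to 6.94 CPM. Of these 10 markers 8 had a lower mean and 2 a higher one, with a median log2 difference of -0.15. The sum of 4 plasmacytoid dendritic cell markers stayed at or under 0.811 CPM in every library. The sum of 5 erythroid markers was 472 to 5317 CPM against 374 to 2067 CPM, and all 5 had a higher mean, with a median log2 difference of 0.93 over all libraries, 1.59 in females and 0.02 in males. No marker of these lists was at 0 in all libraries of either set. Their part in the lower interferon-stimulated RNA was not tested.

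The labelled question was how 8 weeks of jet lag lighting changed liver expression. Over both sexes, 12 jet lag against 14 12:12 libraries, 0 of 33 genes passed an adjusted p of 0.05 in edgeR, while 0.444% of the 16892 genes tested were higher and 0.337% lower. At an unadjusted p under 0.05 there were 1 member and 1353 of all genes in edgeR. At an adjusted p of 0.05 DESeq2 and limma-voom called 0 members as well. Fold changes, jet lag minus 12:12, were positive for 17 and negative for 16 genes. Their median was 0.00 on the log2 scale for type I and 0.01 for gamma-type genes, against 0.02 over all genes tested. A p above the threshold does not show that a gene did not differ. In the authors' deposited table, none of the 33 had an adjusted p under 0.05, and 1.26% of the 17669 genes with a value there did.

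Cmpk2 (chromosome 12, 26469117 to 26479837), the member nearest to the threshold, makes nucleotides in mitochondria and lies beside Rsad2. It stood at 1.82, 2.42 and 3.82 CPM (lowest, median and highest) in 12:12 females and at 2.09, 3.72 and 6.40 CPM in jet lag females. In males it stood at 1.86, 2.25 and 2.72 CPM under 12:12 lighting, and at 4.54, 3.01, 2.91 and 1.59 CPM in jet lag libraries 5 to 8. The ranges overlapped in both sexes, and 10 of 12 jet lag libraries lay above the 12:12 median of their sex. The log2 fold change was 0.54 (SE 0.18, adjusted p = 0.230, edgeR) over both sexes, 0.59 (SE 0.23) in females and 0.46 (SE 0.30) in males.

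Without the 8 libraries with high Cd79a, Cmpk2 was the only member to pass over both sexes, at 0.64 (SE 0.16, adjusted p = 0.0316, edgeR). There 1.38% of 16431 genes were higher and 0.937% lower, and at an unadjusted p under 0.05 there were 4 members and 2178 of all genes. The medians there were 0.01 for type I and -0.05 for gamma-type genes. Within females these libraries gave 0 members, with 0.0548% of genes higher and 0.0243% lower, and within males 0 members, with 0.858% higher and 0.475% lower. With log2 Cd79a as a covariate over all libraries its adjusted p was 0.0789 in edgeR. The range over all the alternatives was 0.0316 to 0.455. In the authors' deposited table the log2 ratio of 12:12 to jet lag was -0.57 for Cmpk2, with an adjusted p of 0.112, the smallest of the members.

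The next members by p in the positive direction were Dhx58 (LGP2, an RNA helicase that tunes the RIG-I sensors) at 0.22 (SE 0.18) and Rsad2 at 0.23 (SE 0.19). In the negative direction they were the ADP-ribosyltransferase gene Parp14 at -0.20 (SE 0.14), Cxcl10 at -0.36 (SE 0.29) and Ifih1 at -0.16 (SE 0.14). Their adjusted p in edgeR ran from 0.896 to 0.983. Rsad2 and Dhx58 lay above the 12:12 median of their sex in 8 of 12 jet lag libraries, and Cxcl10 in 3 of 12.

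In females, 8 libraries against 8, 0 of 33 genes passed, and 0% of all genes were called in either direction. At an unadjusted p under 0.05 there were 1 member and 772 of all 16892 genes. The fold change was positive for 19 of 23 type I genes, with a median of 0.09, and for 4 of 10 gamma-type genes, with a median of -0.03. The median over all genes was -0.03, with 7276 positive and 9613 negative. Without the libraries with high Cd79a the medians were 0.14 and 0.02, and at an unadjusted p under 0.05 there were 4 members and 1258 of 16431 genes. After Cmpk2, the members with the smallest p were Rsad2 at 0.39 (SE 0.24) and Gbp6 at 0.49 (SE 0.42) among positive changes, and Tap1, the peptide transporter of antigen presentation, at -0.14 (SE 0.19), Psmb8 at -0.08 (SE 0.15) and Ifih1 at -0.08 (SE 0.18) among negative ones. Gbp6 stood at 3.87, 18.004 and 21.6 CPM under 12:12 lighting and at 5.08, 22.5 and 43.7 CPM under jet lag. Its 4 highest jet lag libraries, all with low Cd79a, lay above every 12:12 library, while the other jet lag libraries lay within the 12:12 range. No gene of the set had female groups free of overlap, where 0.173% of all genes were higher and 0.0315% lower without overlap.

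In males, 4 jet lag libraries against 6, 0 of 33 genes passed, while 0% of all genes were higher and 0.0118% lower. At an unadjusted p under 0.05 there were 0 members and 1630 of all genes in edgeR. At an adjusted p of 0.05 DESeq2 and limma-voom called 0 members as well. The fold change was negative for 24 of 33 genes, with a median of -0.15 for each list, while the median over all genes was 0.09. Without the libraries with high Cd79a, which leaves 3 jet lag and 4 12:12 males, the medians were -0.15 and -0.28. There 10 of 33 members and 2598 of 16431 genes had an unadjusted p under 0.05, and the smallest adjusted p of a member was 0.0781 (Cxcl10, edgeR). The type I median moved from -0.15 to -0.02 without male jet lag library 8 and to -0.35 without male jet lag library 5, and the gamma-type median moved to -0.02 and -0.35 without the same libraries. No member had male groups free of overlap, where 0.567% of all genes were higher and 0.661% lower without overlap.

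The smallest p in males belonged to Parp14, at -0.44 (SE 0.23, adjusted p = 0.551, edgeR). Its jet lag libraries 5 to 8 stood at 44.7, 26.2, 11.7 and 32.7 CPM, against 28.6, 40.1 and 43.8 CPM (lowest, median and highest) under 12:12 lighting. Libraries 6 and 7 lay below every 12:12 library, and library 5 above all of them. Cxcl10 stood at 1.03, 0.711, 1.42 and 0.508 CPM in jet lag libraries 5 to 8 against 0.352, 1.74 and 2.78 CPM, a change of -0.85 (SE 0.48). Ifit1 stood at 4.77, 3.29, 3.81 and 2.14 CPM against 1.26, 6.83 and 7.83 CPM, a change of -0.78 (SE 0.48). For both genes all 4 jet lag libraries lay above 12:12 library 3, which has high Cd79a, and below the other 5 libraries of that group. After Cmpk2, the smallest p in the positive direction belonged to Psmb8 at 0.21 (SE 0.19) and Oasl1, an oligoadenylate synthetase relative, at 0.32 (SE 0.31).

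The difference between the sexes in the response to lighting passed for 0 of 33 genes, and 0% of all genes were called in either direction. At an unadjusted p under 0.05 there were 0 members and 902 of all genes in edgeR, and DESeq2 and limma-voom called 0 members as well. Females minus males, 28 of 33 differences were positive, with medians of 0.24 for type I and 0.29 for gamma-type genes against -0.10 over all genes. The smallest adjusted p of a member was 0.814 in edgeR. Without the libraries with high Cd79a, 8 members and 1440 of 16431 genes had an unadjusted p under 0.05, the medians were 0.26 and 0.34, and 0 members passed, with a smallest adjusted p of 0.461.

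**Figure D3:**
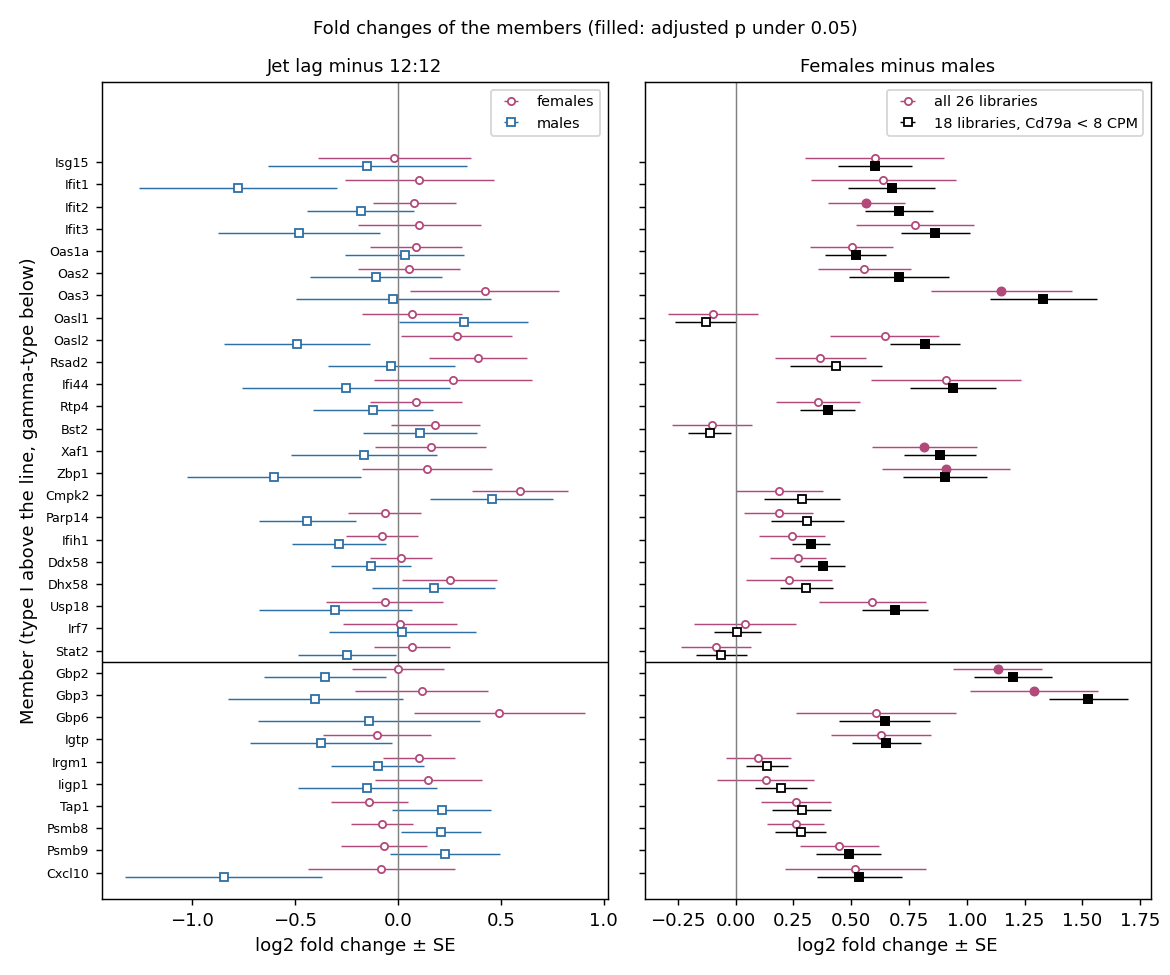
Points are log2 fold changes with their SE from edgeR, for jet lag minus 12:12 in females and in males (left) and for females minus males in all 26 libraries and in the 18 with low Cd79a (right). Filled points passed an adjusted p of 0.05: none on the left, 6 and 21 of 33 on the right.

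The member with the highest level per kb in each role class did not pass for lighting. Bst2 (chromosome 8, 71534255 to 71537472) stood at 58.2, 90.3 and 117 CPM in 12:12 females, at 64.4, 110.3 and 134 CPM in jet lag females and at 53.2, 98.1 and 102 CPM in 12:12 males. In jet lag males, libraries 5 to 8, it stood at 91.5, 99.9, 139 and 48.9 CPM. The lowest library of each of the 4 groups was one with high Cd79a, and the groups overlapped. Irf7 (chromosome 7, 141263183 to 141266499) stood at 28.5, 44.0 and 56.1 CPM in 12:12 females, 18.5, 48.3 and 57.5 CPM in jet lag females, and 10.2, 42.6 and 53.0 CPM in 12:12 males. Jet lag males 5 to 8 held 42.5, 34.1, 53.8 and 21.5 CPM of Irf7. Bst2 and Irf7 had fold changes of 0.15 (SE 0.17) and 0.01 (SE 0.21) over both sexes, with overlapping groups.

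Ddx58 stood at 21.9, 31.9 and 37.2 CPM in 12:12 females, 22.8, 33.8 and 36.6 CPM in jet lag females and 20.2, 24.7 and 28.0 CPM in 12:12 males. Jet lag males 5 to 8 held 34.3, 21.8, 15.4 and 19.1 CPM of Ddx58. Its groups overlapped, with jet lag male 7 the lowest of all. Iigp1 stood at 42.8, 136 and 168 CPM in 12:12 females, 59.7, 159 and 205 CPM in jet lag females and 60.5, 121 and 158 CPM in 12:12 males, and jet lag males 5 to 8 held 154, 103, 68.6 and 103 CPM. Psmb8 stood at 41.4, 47.3 and 64.3 CPM in 12:12 females, 29.1, 43.4 and 66.7 CPM in jet lag females and 28.4, 30.5 and 49.7 CPM in 12:12 males, and jet lag males 5 to 8 held 31.3, 30.2, 40.7 and 54.3 CPM. The fold changes of Ddx58, Iigp1 and Psmb8 over both sexes were -0.04 (SE 0.12), 0.04 (SE 0.21) and 0.03 (SE 0.12).

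Females and males were compared in a test added after the data were seen, adjusted for lighting, with 16 libraries against 10. In females 6 of 33 genes were higher and 0 lower, while 4.67% of all genes tested were higher and 4.46% lower. The fold change was positive for 30 of 33 genes. Its median was 0.50 for type I and 0.48 for gamma-type genes, against -0.02 over all genes. Without the 8 libraries with high Cd79a, 21 of 33 genes were higher, 15 type I and 6 gamma-type, while 10.7% of 16431 genes were higher and 8.68% lower. In those 11 female and 7 male libraries the medians were 0.52 and 0.51.

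Gbp2 (chromosome 3, 142620663 to 142638008) stood at 7.40, 14.4 and 16.2 CPM in 12:12 females and at 5.32, 13.3 and 19.96 CPM in jet lag females. In 12:12 males it stood at 4.11, 5.62 and 10.4 CPM, and in jet lag males 5 to 8 at 5.52, 3.39, 5.04 and 5.12 CPM. Of the 16 female libraries, jet lag library 6 and 12:12 libraries 3 and 6 lay below the highest male library, and only the first of them lay within the range of the jet lag males. The fold of Gbp2, females minus males on the log2 scale, was 1.13 (SE 0.19, adjusted p = 0.000217, edgeR), with 0.98 (SE 0.25) under 12:12 lighting and 1.34 (SE 0.30) under jet lag. It was the only member past the threshold under 12:12 lighting (adjusted p = 0.0259), where 2.01% of all genes were higher and 1.67% lower. It was also the only one under jet lag (adjusted p = 0.0133), where 0.87% were higher and 1.05% lower. Without the libraries with high Cd79a, 5 members were higher under 12:12 lighting, with 4.6% of all genes higher and 3.66% lower, and 15 under jet lag, with 5.54% higher and 6.04% lower.

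Its neighbour Gbp3 (chromosome 3, 142560016 to 142573213) stood at 8.31, 24.9 and 32.4 CPM in 12:12 females and at 6.50, 26.6 and 48.0 CPM in jet lag females. In 12:12 males it stood at 4.24, 10.8 and 15.5 CPM, and in jet lag males 5 to 8 at 8.12, 6.34, 7.29 and 9.995 CPM. The female libraries within the male range, 12:12 library 6 and jet lag libraries 2 and 6, all had high Cd79a. The log2 difference was 1.29 (SE 0.28, adjusted p = 0.00328, edgeR) in all libraries and 1.53 (SE 0.17) in the 18 with low Cd79a.

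The other 4 genes that were higher in females belonged to the type I list. Oas3 (chromosome 5, 120753098 to 120777684) differed by 1.15 on the log2 scale (SE 0.31, adjusted p = 0.0164, edgeR). Its levels were 0.812, 2.23 and 3.03 CPM in 12:12 females, 0.833, 3.42 and 4.09 CPM in jet lag females and 0.290, 0.858 and 1.95 CPM in 12:12 males, and jet lag males 5 to 8 held 2.28, 0.792, 0.361 and 0.784 CPM. Xaf1, which encodes an inhibitor of the apoptosis inhibitor XIAP, differed by 0.82 (SE 0.23, adjusted p = 0.0215, edgeR), with 6.98 ± 1.97 and 8.08 ± 3.12 CPM in 12:12 and jet lag females (mean ± SD, n = 8 each) against 4.06 ± 1.26 (n = 6) and 3.58 ± 1.31 CPM (n = 4) in males. These 4 genes had overlapping ranges in the sexes over all libraries.

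Ifit2 differed by 0.57 (SE 0.17, adjusted p = 0.0292, edgeR), and Zbp1 by 0.91 (SE 0.28, adjusted p = 0.0359, edgeR). Zbp1 stood at 12.9 ± 3.99 and 14.8 ± 6.47 CPM in 12:12 and jet lag females against 7.86 ± 3.81 and 5.13 ± 0.584 CPM in males. Gbp2, Gbp3 and Oas3 passed in each of the 34 alternatives tried, and Xaf1 in 33, the exception being a block on the library number shared by both sexes. Ifit2 lost its call without female 12:12 library 5, male 12:12 library 4, or male jet lag library 6 or 7, with an adjusted p of up to 0.0568. Zbp1 passed in 22 of the 34, and its adjusted p reached 0.0828. It lost its call without female 12:12 library 2, 5 or 8, male 12:12 library 3, 5 or 6, or male jet lag library 5, 6 or 8, by limma-voom, with no filter on low counts and with that block.

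**Figure D4:**
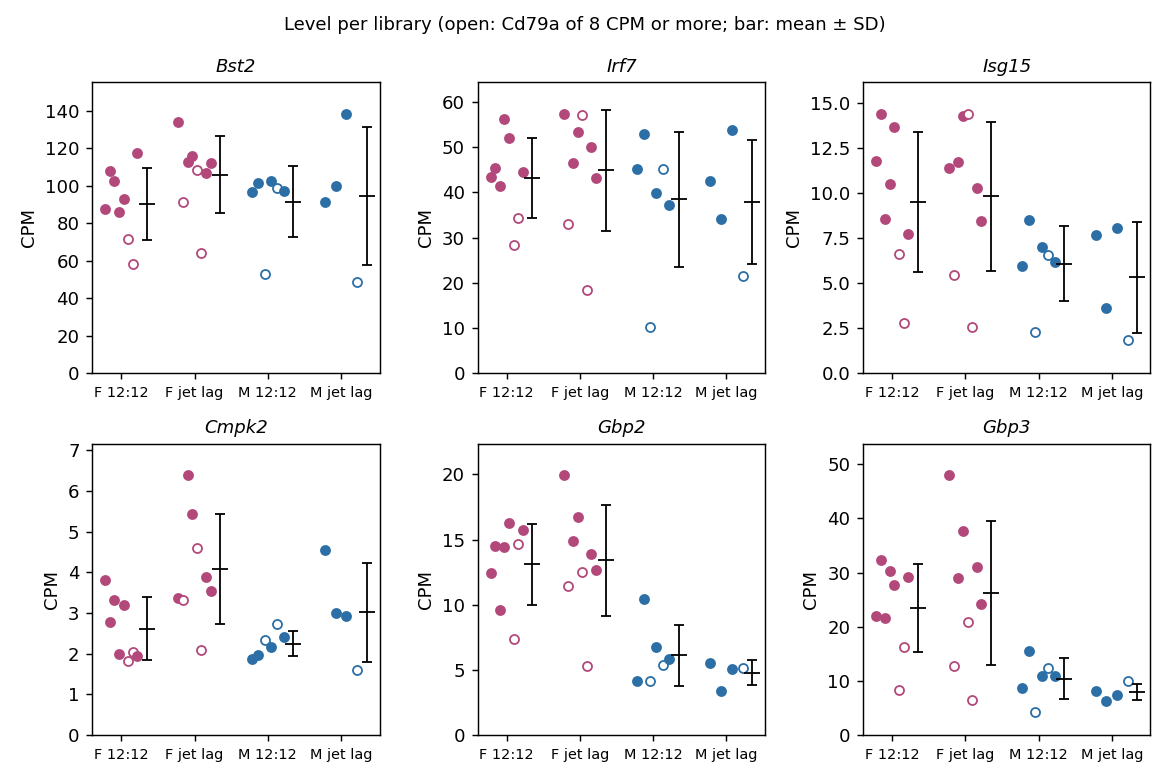
Each point is a library's CPM in the 4 groups for 6 members, open where Cd79a is 8 CPM or more, with the mean and SD of the group beside it. Female and male points of Gbp2 and Gbp3 lie apart except for a few female libraries, most of them open, while those of Bst2 and Irf7 overlap.

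No gene had all 16 female libraries above all 10 male ones, as 0.354% of all genes did. Among the 18 libraries with low Cd79a, Ifit2, Ifit3, Ifi44, Xaf1, Ifih1 and Gbp3 did, 6 of 33 against 3.13% of all genes. Not every member followed. In the 18 libraries the fold change was -0.11 (SE 0.09) for Bst2, -0.13 (SE 0.13) for Oasl1, -0.06 (SE 0.11) for Stat2 and 0.01 (SE 0.10) for Irf7, none of them past the threshold.

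T and NK cell markers, whose cells are the main source of interferon gamma, also differed between the sexes. Their summed level was 4.47 to 6.45 CPM in 12:12 females and 3.09 to 6.94 CPM in jet lag females, against 2.07 to 3.61 and 2.29 to 3.76 CPM in males. Of the 10 markers 4 were higher in females, Cd3e, Cd3g, Nkg7 and Gzmb, by 1.69, 1.14, 1.15 and 1.29 on the log2 scale. Over all genes tested, 4.67% were higher in females and 4.46% lower. None of the 10 T and NK cell markers was at 0 in all libraries of a group. The fold change was also positive for 9 of 10 macrophage and Kupffer cell markers, with a median of 0.31, and for 8 of 8 neutrophil markers, with a median of 0.88. Of both these lists 0 markers passed. Of the 4 mitochondrial encoded genes 2 were lower in females, as were 1 of 5 erythroid and 1 of 8 hepatocyte markers. The part of these in the higher level of interferon-stimulated genes in females was not tested.

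The interferons themselves were at or near the limit of detection. Over all 26 libraries there were 0 counts for Ifna1, Ifna2, Ifna4, Ifne, Ifnl2 and Ifnl3, 1 count for Ifnb1, 27 for Ifnk and 36 for Ifng, and none of them could be tested. The receptor chains were present, Ifnar1 at 26.5 to 51.2 CPM, Ifnar2 at 38.1 to 69.3, Ifngr1 at 11.8 to 42.2 and Ifngr2 at 10.03 to 25.6 CPM over all libraries. The interferon lambda receptor gene Ifnlr1 stayed at or under 0.542 CPM and was not tested.

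Of the other pathway genes tested for jet lag over both sexes, 0 of 5 receptor chains, 10 transducers, 4 inhibitors, 8 nucleic acid sensing genes, 18 other interferon-induced and 21 other gamma-induced genes passed. The smallest p belonged to Socs3, an inhibitor of JAK kinases, at -0.53 (SE 0.25, adjusted p = 0.592, edgeR), followed by the kinase gene Jak1 at -0.12 (SE 0.07) and the proteasome gene Psmb10 at -0.21 (SE 0.13). Other genes with the smallest p of their class were Socs1 at -0.44 (SE 0.29), Irf5 at 0.16 (SE 0.14), Mavs, the adaptor of the RIG-I sensors, at -0.19 (SE 0.12), the Toll-like receptor gene Tlr3 at -0.10 (SE 0.13), Gbp7 at -0.37 (SE 0.23), Samd9l at -0.14 (SE 0.09), Dtx3l at -0.24 (SE 0.16), Ifnar2 at 0.06 (SE 0.10) and Ifnar1 at -0.03 (SE 0.07).

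In the comparison of females with males, 1 of 5 receptor chains, 1 of 10 transducers, 2 of 18 other interferon-induced and 4 of 21 other gamma-induced genes were higher in females and none of these classes had a lower one. Of all 16892 genes tested, 4.67% were higher and 4.46% lower. The pathway genes called were Ifngr2 at 0.36 (SE 0.10), the transcription factor gene Irf1 at 0.42 (SE 0.11), Ly6e at 0.54 (SE 0.13), Samd9l at 0.52 (SE 0.09), Gbp7 at 0.75 (SE 0.24), the antigen presentation genes Tap2 at 0.39 (SE 0.11) and Tapbp at 0.51 (SE 0.14), and Cd274, the gene of the immune checkpoint ligand PD-L1, at 0.78 (SE 0.21). The smallest adjusted p among them was 0.000551 (Samd9l, edgeR) and the largest 0.0448 (Gbp7). Median fold changes of the classes were 0.24 for receptor chains, 0.08 for transducers, 0.22 for other interferon-induced and 0.33 for other gamma-induced genes. The median over all genes was -0.02.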

How the data were processed

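The raw table deposited by the authors held expected counts of reads per gene name, without normalization. It had 36930 lines, and 45.82% of its cells held 0.015, which was read as 0. Values were rounded (1.44% were not whole, tolerance 1e-06) and lines that shared a name were summed. STAR, DESeq2 and the mm10 build are named without versions in the submitters' processing notes, and the sources used here give no counting tool or strand setting. The libraries were stranded mRNA libraries per the labels' protocols. A DESeq2 table deposited by the authors held the log2 ratio of 12:12 to jet lag and an adjusted p-value per gene, and is named wherever its values are quoted.

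CPM was the count divided by the library total. The pseudocount of log2 values was 0.5. Genes passing filterByExpr with a count minimum of 10 (16892) were fitted by the quasi-likelihood F test of edgeR 4.0.16 in R 4.3.3 with TMM scaling, over all 26 libraries. Adjusted p-values are Benjamini-Hochberg over all genes tested, with a threshold of 0.05, and the SE is the log2 fold change over the square root of F. The additive model held sex and lighting, and the comparisons within a sex and the interaction came from 4 group means. Alternatives used DESeq2 1.42.0, limma 3.58.1, other scaling and filters, replicate blocks within and across sexes, no libraries with high Cd79a, a Cd79a covariate, 1 sex at a time and 1 library left out. The fit was tested on simulated counts. Lengths were exon unions of a GENCODE annotation of the same assembly. No 2 libraries were copies, with a chi-square per degree of freedom of at least 31.5. The labels number the animals of a group, and p-values measure the spread between them.

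Members described in detail were chosen by rule, and other members are named where a range, rank or count is given. The rule took the highest member per kb in each role class and the 3 smallest p in each direction for each lighting comparison. It also took any member past the threshold and the 3 type I and 3 gamma-type genes with the largest Cd79a difference. For other pathway genes it took those past the threshold and the 2 with the smallest p of a class over both sexes. Others, such as Tlr7 and Tlr9, are named outside the rule. The members, lists and the Cd79a limit of 8 CPM were chosen with earlier results of these data known.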

Additional observations from a re-analysis of the deposited data

Results flagged for a closer look

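Within groups of 4 to 8 libraries, 7 of 132 pairs of a gene and a group had a highest or lowest library set apart from the nearest of the others by more than Dixon's 95% limit, and chance alone gives about 5%. In 12:12 males, library 3, which has high Cd79a, was set apart as the lowest for Ifit1 at 1.26 CPM, Bst2 at 53.2 CPM and Irf7 at 10.2 CPM. In the same group, library 2 was set apart as the highest for Igtp at 49.5 CPM and Psmb8 at 49.7 CPM. In jet lag females, library 6, with high Cd79a, was set apart as the lowest for Oas1a at 2.32 CPM. In 12:12 females, library 6, with high Cd79a, was set apart as the highest for Psmb8 at 64.3 CPM.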

How the results depend on the processing

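For jet lag, 0 members passed in females, in males and in the interaction under every alternative, and 0 over both sexes under every alternative except the fit without the 8 libraries with high Cd79a, which gave 1 (Cmpk2). Leaving out each library gave 0 to 0 in all 4 comparisons. For females against males over both lightings, 6 members passed. DESeq2 gave 11 (5.87% of all genes higher and 5.8% lower), the fit without the high Cd79a libraries 21 (10.7% and 8.68%) and a Cd79a covariate 18 (7.78% and 7.2%). Leaving out each library gave 4 to 11, with 11 without female jet lag library 6 and 10 without female 12:12 library 6. Under 12:12 lighting the count of 1 became 2 by DESeq2 (2.97% higher and 2.81% lower), 5 without the high Cd79a libraries (4.6% and 3.66%) and 3 with the covariate (4.17% and 3.42%), and 0 to 2 on leaving out a library (0 without female 12:12 library 5 or male 12:12 library 1, 3 or 5). Under jet lag the count of 1 became 5 by DESeq2 (1.94% and 1.91%), 2 with a count minimum of 50 (1.07% and 1.11%), 15 without the high Cd79a libraries (5.54% and 6.04%) and 12 with the covariate (2.69% and 3.19%), and 0 to 3 on leaving out a library (0 when male jet lag library 6 was left out and 3 for female jet lag library 6). For the fits with 1 library left out, the share over all genes is not given here. Their counts therefore do not show a change particular to the members. The cause of the changes in all these counts was not tested. No gene's call reversed. The fold changes of Psmb8 in females and males and of Ifih1 in females, never past the threshold, changed sign in 1, 2 and 2 settings. The Cd79a medians ranged from -0.66 to -0.43 for type I and from -0.69 to -0.33 for gamma-type genes, where TMM scaling moved the median of all genes from 0.10 to -0.05.

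With the replicate number within sex as a block, 0 members passed in each lighting comparison. A replicate block on the number shared by both sexes, added after seeing the data, also gave 0 in each of them. It gave 4 members for females against males over both lightings (3.04% of all genes higher and 2.62% lower), without Xaf1 (adjusted p = 0.0962, edgeR) and Zbp1, 0 under 12:12 lighting (1.18% and 0.699%) and 0 under jet lag (0.349% and 0.29%). Libraries of the same number did not all deviate together: over 10 pairs the correlation ran from -0.49 to 0.68, 6 were above 0.1 and 1 of 10 libraries correlated best with its own number. The correlation was negative where only 1 library of the pair had high Cd79a, so it cannot exclude a factor shared by number. The block within sex holds the sex, so it gives no sex comparison. Counting depth limits the interferon genes most, and every member lay above the limit that a count of 0 allows. The lowest member values, such as 0.228 CPM of Ifi44 in male 12:12 library 3, still rest on few counts.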

Other observations

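Outside the 33 genes, the classes of the pathway are described in the Cd79a sets with no test, beside a median of 0.10 and 7887 of 12703 genes higher over all genes. The other gamma-induced genes were lower in the 8 libraries with high Cd79a for 19 of 21 genes, with a median log2 difference of -0.39, and the other interferon-induced genes for 13 of 18, with a median of -0.12. Nucleic acid sensing genes, such as the Toll-like receptor genes Tlr7 and Tlr9, were higher for 6 of 8, with a median of 0.57, and receptor chains for 5 of 6, with a median of 0.14. All 4 inhibitor genes were higher, with a median of 0.35. The transducers had a median of -0.06.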
